A study of Mus musculus with 8 samples.

Results

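The 56 genes described here encode proteins of the cell division cycle, and they were taken by name from the 28146 gene names on the array. A probe counted as a member's where its gene name equalled the symbol, with the older name Cdc2a accepted for Cdk1. The members divide into 25 genes of the G1/S transition and DNA replication and 31 genes of G2 and mitosis. All 56 were on the array, with 89 probes between them, 1 probe each for 31 members and more than 1 for the other 25. The study asked how food restriction of pregnant mice changed gene expression in maternal and fetal liver. From gestation day 10 to 17, pregnant C57BL/6J mice were given chow at 50% of the amount that control dams consumed (food restriction, FR), and controls ate freely. The labels name no other treatment and no engineered allele. Sampling was on gestation day 18, the fetuses by caesarean section. Livers came from 6 mothers per diet and from 2 male fetuses of each mother. RNA was pooled within a diet, so each value below is that of a pool and not of an animal.

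There were 8 Agilent 2-colour arrays. Each held an FR pool and a control pool of the same tissue, and each pair of pools was hybridised again with the dyes exchanged. The groups were FR and control mothers in pools of 6 (1 pool pair), FR and control fetuses in pools of 6 (1 pool pair), and FR and control fetuses in pools of 3 (2 pool pairs). The 2 arrays of a pair were averaged and counted as 1 replicate, because the titles give them the same pool. A description text calls the dye-exchanged array a different pool and also names rat hippocampi, against the mouse liver of the titles, source names and organism field. The titles were followed for pool, species and tissue. On the pools, if the exchanged array did hold another one, the replicate numbers and SDs given here would mean something else. The labels do not say which litters each fetal pool held. With 6 mothers per diet and 2 fetuses of each, the fetal pools of a diet cannot all hold separate litters. The fetal pool pairs are therefore not fully independent.

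Cells divide in an ordered cycle. In G1, D-type and E-type cyclins activate kinases that free the E2F transcription factors, and E2F targets then license and copy the DNA in S phase. In G2 and M, cyclin A, cyclin B and Cdk1, the Aurora and Polo-like kinases, the spindle checkpoint and the kinesin motors condense, align and separate the chromosomes, and ubiquitin ligases then destroy the mitotic regulators. Late fetal liver is a site of blood cell formation and of growing hepatocytes, and many of its cells divide. Adult hepatocytes are mostly quiescent, and the maternal liver enlarges in pregnancy. In these bulk samples, fewer cells of a type and less RNA per cell cannot be told apart.

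Between 65.8% and 88.5% of probes were well above background in a channel. In maternal FR livers 1 G1/S member and 7 G2/M members were not above background on either array. The scanner had marked the Cy3 spots of 60.3% and 62.9% of member probes as non-uniform on the arrays of the fetal pools of 6, 11.2% and 12.1% on the maternal arrays, and 0% on the second slide, which held the pools of 3. These spots were kept. Across all genes, the log2 ratios of the 2 arrays of a pair correlated at 0.708 in mothers and at 0.577 to 0.766 in the fetal pairs. The 9 hepatocyte markers that could be read were above background in both tissues, while 6 of 14 erythroid markers were not above background in mothers and all 14 were in fetuses.

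In control livers, nearly the whole set was lower in mothers than in fetuses. Of the 25 G1/S members 24 were lower and 1, Ccnd1, was higher, and of the 31 G2/M members 29 were lower and none higher (limma, adjusted p under 0.05). Across the array 22.5% of 20887 genes were lower in mothers and 20.4% higher. The median difference was -2.83 on the log2 scale for the G1/S members, or 7.12-fold, and -3.47 for the G2/M members, or 11.1-fold, against -0.012 over all genes. Levels here are log2 normalised intensities. A member entered if its control channel was above background on all arrays of at least 1 tissue. Cdc6 and Kif2c entered by the fetal arrays alone, so for them the filter itself favoured a lower value in mothers. The difference is between the pools of 6 on the first slide, and the error comes from the fetal pools on the second slide, so the single maternal pool was assumed to vary as the fetal pools did.

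**Figure D1:**
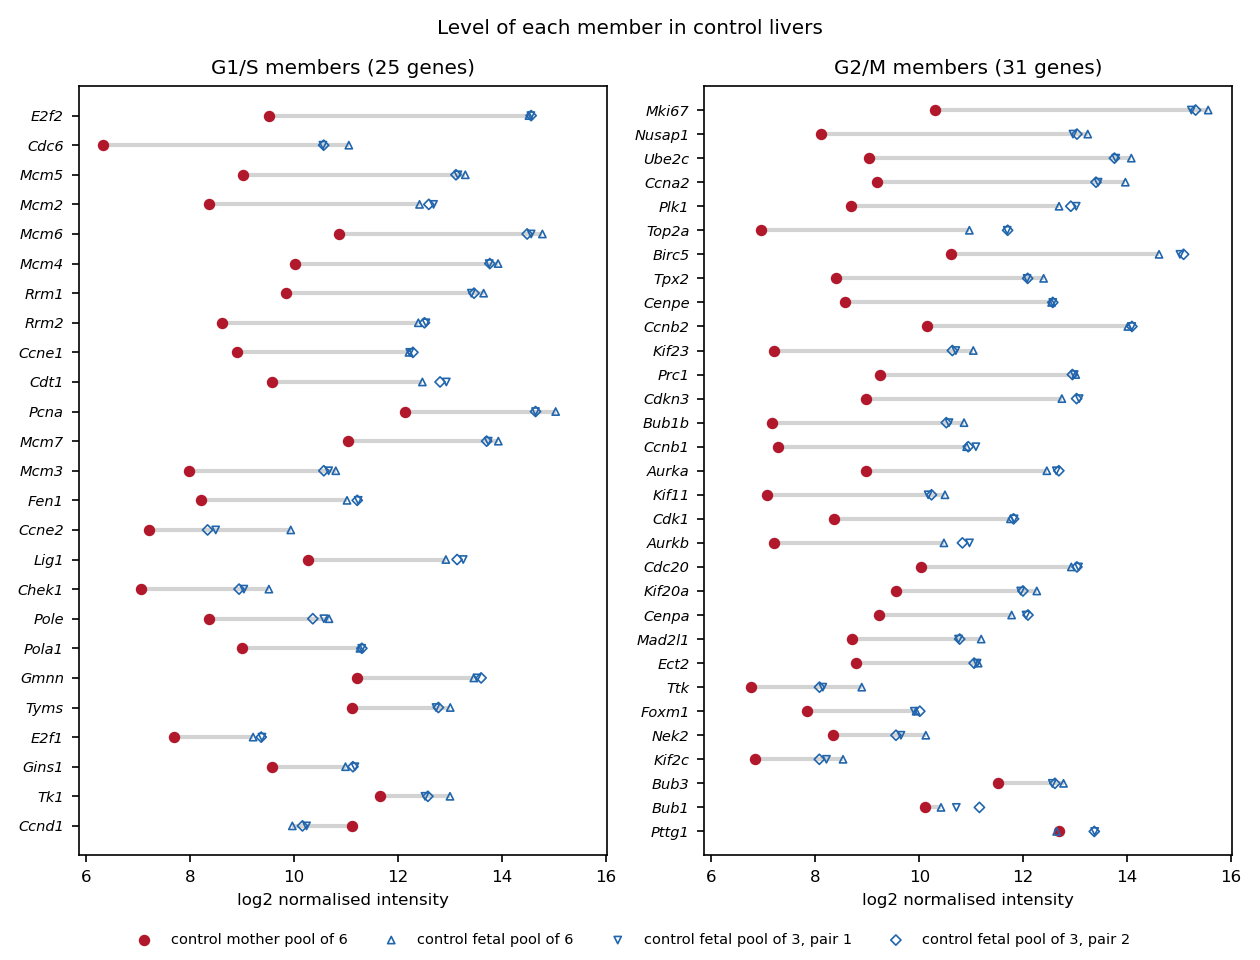
Log2 normalised intensity of each member in control livers, G1/S members on the left and G2/M members on the right, sorted by the difference between mother and fetus. The filled circle is the maternal pool and the open symbols are the 3 fetal pools. Only Ccnd1 lies clearly to the right of its fetal pools in mothers, and Pttg1 and Bub1 lie close to theirs.

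Mki67, the nuclear proliferation antigen that coats mitotic chromosomes, differed most among the G2/M members. Its level was 10.30 in control mothers, against 15.56 in the fetal pool of 6 and 15.23 and 15.32 in the fetal pools of 3. The difference was -5.26 (SE 0.11, adjusted p = 0.00128), a 38.4-fold lower level in mothers. Nusap1, which binds spindle microtubules, was 35.2-fold lower, Ube2c, the ubiquitin-conjugating enzyme of the anaphase-promoting complex, 33.1-fold, and Ccna2, cyclin A2, 27.6-fold. These 4 had fetal levels between 12.96 and 15.56, among the brighter probes of the set. Nusap1 has a second, dimmer probe, and by that probe its difference was -0.78 on the log2 scale, so its probes disagree in size.

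Among the G1/S members, E2f2, a transcription factor of the E2F family, had a level of 9.52 in control mothers, against 14.53, 14.56 and 14.57 in the 3 control fetal pools. It was 32.2-fold lower in mothers (SE 0.11 on the log2 scale, adjusted p = 0.00128). The next differences by size in this set were those of Cdc6 and helicase subunits. Cdc6, which loads the replicative helicase onto origins, was 26.7-fold lower in mothers, where it was above background on 1 of 2 arrays. Its maternal level of 6.32 lay near the lowest measurable control signals of the maternal arrays, 6.08 and 5.96, so its fold and rank are uncertain. The helicase subunits Mcm5, Mcm2, Mcm6 and Mcm4 were 19.3-fold, 16.5-fold, 15.09-fold and 15.05-fold lower. Mcm7 and Mcm3 were 7.41-fold and 7.12-fold lower, so the subunits of 1 complex differed by unequal amounts. Pcna, the sliding clamp of the replicative polymerases, was 7.41-fold lower.

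At the small end, Tk1, thymidine kinase, was 2.55-fold lower in mothers, Gins1, a helicase cofactor, 2.68-fold, and E2f1 2.88-fold. Bub3, a spindle checkpoint protein, was 2.39-fold lower, a log2 difference of -1.26 by its brightest probe. Dimmer Bub3 probes that passed the filter gave -0.32 and -0.25, so its probes disagree in size. Kif2c, a kinesin that depolymerises microtubules, was 3.24-fold lower, with a maternal level above background on 1 of 2 arrays. Pttg1, securin, had a level of 12.69 in control mothers, against 12.64, 13.38 and 13.37 in the fetal pools (adjusted p = 0.74). Bub1, a checkpoint kinase, had 10.12, against 10.42, 10.71 and 11.16 (adjusted p = 0.422). Bub1 has a second, dimmer probe, and by that probe the level in mothers was lower by -4.10 on the log2 scale, so the 2 probes do not give the same answer.

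Ccnd1, cyclin D1, went the other way. Its level was 11.13 in control mothers, against 9.97, 10.25 and 10.17 in the control fetal pools, a difference of 1.15 (SE 0.11, adjusted p = 0.00792). Between FR livers the difference was -0.10 (adjusted p = 0.771). In FR livers 24 G1/S and 29 G2/M members were lower in mothers and none was higher, where 13.4% of 21268 genes were lower. The medians were -2.92 and -4.29. These counts and medians include 1 G1/S member, Cdc6, and 7 G2/M members not above background on either array of FR mothers. Tpx2 and Bub1b were above it on 1 of 2 arrays. All of these entered by the fetal arrays alone, so the filter itself favoured a lower value in mothers.

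Food restriction of the mothers was accompanied by lower levels of mitotic genes in their own livers. With 1 pool pair there is no replicate check and no test, and a gene was counted where both arrays gave over 2-fold in 1 direction. By that rule 12 of the 30 measured G2/M members were lower in FR mothers and none was higher, beside 1.17% of 19536 genes lower and 1.01% higher. On both arrays 28 of the 30 were lower in FR, by any amount, and none was higher on both, beside 34.2% and 33.2% of all genes. The 28 include Ccnb1, Aurkb, Kif23, Top2a, Kif11 and Ttk, not above background on either FR array, and Tpx2 and Bub1b, above it on 1 of 2. These entered by the control channel alone, so the filter itself favoured a lower ratio. None of the 12 is among them. The median over the G2/M members was -0.74, against 0.0035 over all genes. The 24 measured G1/S members gave 2 lower, none higher and a median of -0.18. Cdc6 and Kif2c did not pass the filter on dim probes in mothers.

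**Figure D2:**
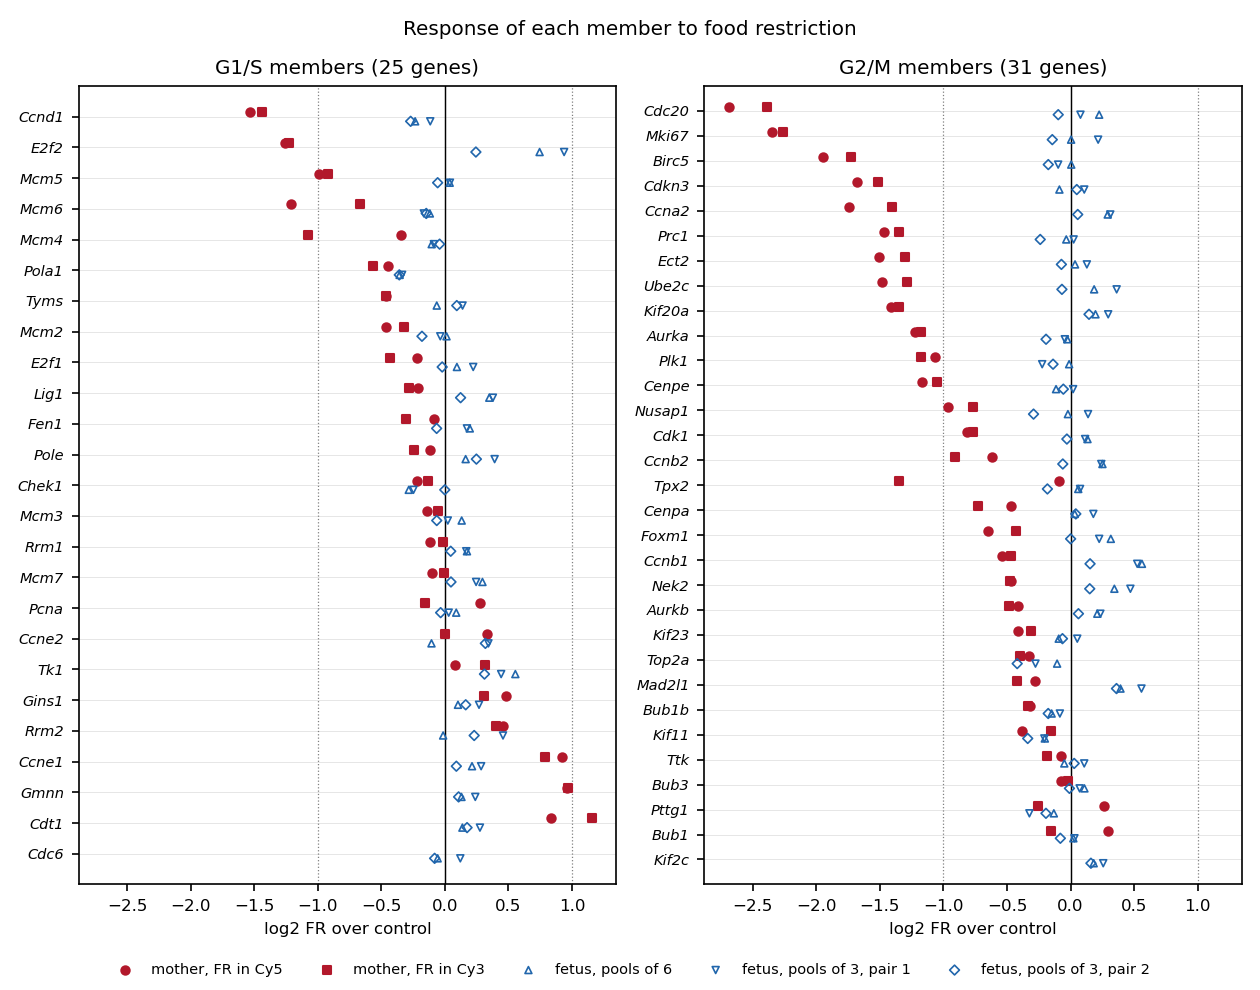
Log2 ratio of FR over control for each member, G1/S members on the left and G2/M members on the right, sorted by the maternal response. Filled red symbols are the 2 maternal arrays and open blue symbols the 3 fetal pool pairs; dotted lines mark 2-fold. Maternal values of most G2/M members lie left of 0 and most fetal values lie near 0.

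Cdc20, which activates the anaphase-promoting complex, had the lowest ratio of all members. Its level was 7.24 and 7.76 in FR mothers on the 2 arrays, against 9.93 and 10.15 in control mothers. Both values of a diet are hybridisations of 1 pool and show only the technical spread. The log2 ratios were -2.69 and -2.39, or 5.82-fold lower on average. Its probe lies on mouse chromosome 4 at 118105536 to 118105595 (mm9, minus strand). Mki67 had levels of 8.04 and 7.94 in FR mothers, against 10.39 and 10.20 in control mothers, and log2 ratios of -2.35 and -2.26. That was 4.94-fold lower by the brighter of its 2 probes, both on chromosome 7, and the other probe gave -1.18. Birc5, survivin, a subunit of the chromosomal passenger complex, had levels of 8.74 and 8.80 in FR mothers, against 10.69 and 10.53, and was 3.58-fold lower.

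The cyclins and kinases of mitotic entry were lower by unequal amounts. Ccna2 had log2 ratios of -1.75 and -1.40 and was 2.98-fold lower. Aurka, the Aurora kinase of spindle poles, and Plk1, Polo-like kinase, were 2.30-fold and 2.17-fold lower. Cdk1, the mitotic kinase itself, gave -0.81 and -0.77, and its cyclin partner Ccnb2 gave -0.62 and -0.91, so both were lower on both arrays without reaching 2-fold. Ccnb1, cyclin B1, gave -0.54 and -0.47, but its FR level was not above background on either array, so it was at least 1.42-fold lower. The same holds for Aurkb (at least 1.37-fold), Kif23 (1.29-fold), Top2a, the DNA topoisomerase of chromosome condensation (1.28-fold), Kif11 (1.20-fold) and Ttk (1.09-fold).

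The spindle, cytokinesis and exit genes followed. Cdkn3, a phosphatase that acts on cyclin-dependent kinases, was 3.03-fold lower, Prc1, the crosslinker of the central spindle, 2.65-fold, and Ect2, which acts at the cleavage furrow, 2.65-fold. Ube2c was 2.61-fold lower, Kif20a, a central spindle kinesin, 2.60-fold, and Cenpe, a kinesin of the kinetochore, 2.16-fold. Probes disagreed for 3 of these. A second probe gave 0.03 for Ect2, -0.57 for Cdkn3 and -0.16 for Cenpe, and with all probes averaged these 3 were no longer over 2-fold lower on both arrays. For Nusap1 the probes gave -0.87 and 0.04, and for Bub3 they lay between -0.62 and 0.06. Tpx2, which activates Aurora A, gave -0.09 and -1.35, a gap between arrays wider than its mean.

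The checkpoint genes had smaller ratios than these. Mad2l1 gave -0.28 and -0.42, Bub1b -0.32 and -0.33, and Bub3 -0.08 and -0.02, each lower on both arrays. Bub1b was dim, with an FR level above background on 1 of 2 arrays, and stood at -1.70 and -2.04 in the authors' deposited log ratios. Bub1 gave 0.30 and -0.16 by its brighter probe, and Pttg1 0.26 and -0.26, opposite signs on the 2 arrays. The second, dimmer probe of Bub1 gave a mean of -0.30. Pttg1, and Bub1 by its brighter probe, are also the members whose control level did not pass the test between mother and fetus.

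Where a G2/M member was dim in control mothers its ratio was smaller. The median ratio was -1.12 over the 22 members with a control maternal level over 8 and -0.36 over the 8 members at or under 8. Across the 30 G2/M members Spearman's rank correlation between ratio and control level was -0.37, a description over genes that share the same arrays. The constant of 50 added after background correction makes the ratio of a dim spot smaller by construction. In the authors' deposited log ratios, which were made without that step, 22 of the 30 G2/M members were over 2-fold lower in FR mothers on both arrays, with a median of -2.24 and Cdc20 at -4.03. These 22 include the 6 genes named above whose FR level was not above background, so their deposited ratios, such as -3.60 for Ccnb1, are not measured values, and the median includes them.

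**Figure D3:**
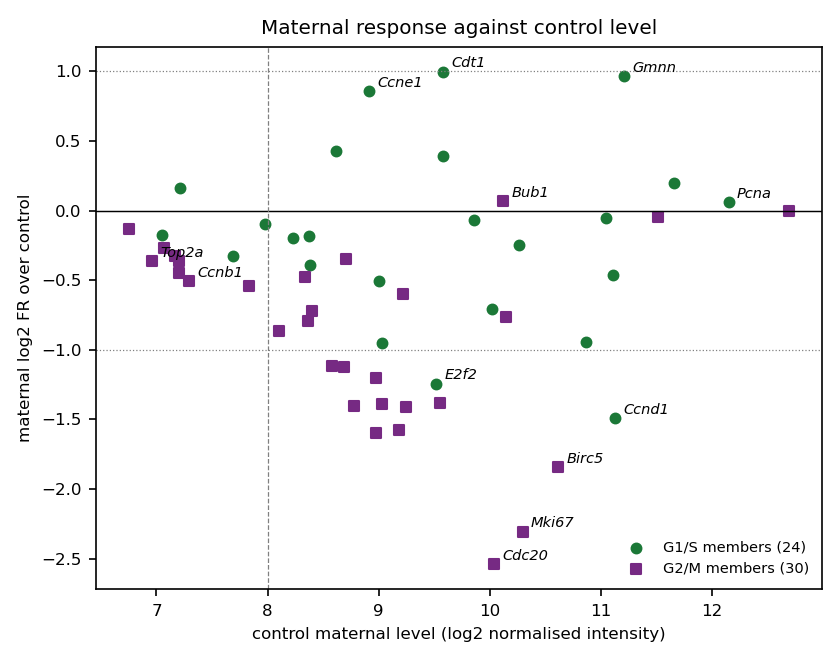
Maternal log2 ratio of FR over control (vertical) against the level in control mothers (horizontal, log2 normalised intensity) for the 24 G1/S and 30 G2/M members measured in mothers. Dotted lines mark 2-fold and the dashed line a level of 8; the members at or under a level of 8 lie between 0.16 and -0.54, and the lowest ratios belong to Cdc20, Mki67 and Birc5 at levels from 10.04 to 10.61.

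The G1/S members stood on both sides of 0 in FR mothers. Ccnd1, the cyclin that links growth signals to the cycle, had levels of 9.66 and 9.62 in FR mothers, against 11.20 and 11.06 in control mothers. Its log2 ratios were -1.53 and -1.44, 2.80-fold lower. E2f2 had 8.21 and 8.34, against 9.47 and 9.57, and was 2.37-fold lower. The helicase subunits Mcm4, Mcm5 and Mcm6 followed without reaching 2-fold on both arrays. Mcm5 gave -0.99 and -0.92, Mcm6 -1.21 and -0.67, and Mcm4 -0.34 and -1.08, the last with a wide gap between arrays. Mcm2 gave -0.46 and -0.32, Mcm3 -0.14 and -0.06, and Mcm7 -0.10 and -0.01.

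The licensing factor and its inhibitor stood at the high end. Cdt1, which loads the helicase together with Cdc6, had levels of 10.46 and 10.70 in FR mothers, against 9.62 and 9.55 in control mothers, with log2 ratios of 0.84 and 1.16. Gmnn, geminin, which binds and blocks Cdt1, had 12.17 and 12.18, against 11.21 and 11.21, and log2 ratios of 0.96 and 0.97. Ccne1, cyclin E1, had 9.82 and 9.72, against 8.90 and 8.93, and log2 ratios of 0.92 and 0.79, while its second, dimmer probe gave 0.18. In these 3 genes both hybridisations gave the higher level in FR, and none was over 2-fold on both arrays. Rrm2, the regulated subunit of ribonucleotide reductase, gave 0.46 and 0.40, and Gins1 0.48 and 0.31. Pcna gave 0.28 and -0.16, with no common direction. In all, 16 G1/S members were lower and 7 higher in FR mothers on both arrays.

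The promoters of the set show where the G1/S and G2/M members differ in sequence. RefSeq promoter windows (GRCm38.p6, 250 bases before to 50 after the start) were matched by symbol to 45 of the 56 members, with 53 windows in all, and not matched for 11. Letters were searched on both strands. CCAAT is the core of the box bound by NF-Y, and TTTGAA is a core of the cell cycle homology element bound by the DREAM and MuvB complexes. The forms of the E2F site searched were TTTGGCG, then TTCGCGC, further TTTCCCG and lastly TTCCCGC, and they can overlap each other. CCAAT stood in 82.8% of 29 G2/M windows, 50% of 24 G1/S windows and 37.4% of all 32851 windows. TTTGAA stood in 72.4% of G2/M windows, 12.5% of G1/S windows and 17.9% of all. Both together stood in 69% of G2/M windows, 8.33% of G1/S windows and 6.95% of all. Any of the E2F forms stood in 10.3% of G2/M windows, 58.3% of G1/S windows and 9.37% of all. Of the 14 windows of the 11 matched members that were over 2-fold lower in FR mothers, 13 held CCAAT and 11 held both CCAAT and TTTGAA. A match of letters is a description and not a bound site.

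The bases just before the start are shown for 3 mitotic genes with low ratios in FR mothers, and for 2 helicase subunit genes as the G1/S counterpart. The stretch is 120 bases, but 190 for Mki67 and 160 for Mcm5. Those longer stretches take in the CCAAT matches of Mki67 and the E2F matches of Mcm5, which begin beyond 120 bases. The genes and lengths were picked, so the stretches are examples and not a comparison of the 2 sets. Capitals mark every match to the letters above, on either strand, so CCAAT also appears as ATTGG and TTTGAA as TTCAAA. The windows are chr4:118437344-118437463 on the minus strand (Cdc20), chr7:135716380-135716569 on the minus strand (Mki67), chr2:164769809-164769928 on the plus strand (Ube2c), chr1:128359706-128359825 on the minus strand (Mcm6) and chr8:75109349-75109508 on the plus strand (Mcm5), all in GRCm38.p6.
Cdc20: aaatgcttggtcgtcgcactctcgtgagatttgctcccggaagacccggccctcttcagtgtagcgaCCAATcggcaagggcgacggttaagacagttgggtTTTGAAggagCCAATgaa
Mki67: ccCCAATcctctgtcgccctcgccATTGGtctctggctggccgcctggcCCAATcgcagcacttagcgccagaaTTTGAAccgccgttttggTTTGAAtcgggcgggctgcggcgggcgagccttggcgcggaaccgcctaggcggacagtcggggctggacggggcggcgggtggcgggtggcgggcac
Ube2c: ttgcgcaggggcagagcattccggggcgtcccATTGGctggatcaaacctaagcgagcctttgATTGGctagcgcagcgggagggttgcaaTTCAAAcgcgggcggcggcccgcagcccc
Mcm6: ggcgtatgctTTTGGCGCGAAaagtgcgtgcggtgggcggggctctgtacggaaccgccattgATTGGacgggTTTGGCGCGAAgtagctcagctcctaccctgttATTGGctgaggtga
Mcm5: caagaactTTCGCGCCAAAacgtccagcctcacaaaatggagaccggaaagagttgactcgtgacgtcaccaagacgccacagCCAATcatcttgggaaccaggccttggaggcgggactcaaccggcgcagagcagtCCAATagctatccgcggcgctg
In Cdc20 a CCAAT began 53 bases before the start and TTTGAA 18 bases before it. In Ube2c a CCAAT on the other strand began 57 bases before the start and TTTGAA 29 bases before it. Mki67 held 3 CCAAT and 2 TTTGAA, the nearest 98 bases before the start. Neither helicase gene held TTTGAA in the stretch shown. Mcm6 held 2 copies of an E2F form 110 and 47 bases before the start, each overlapping a second form on the other strand, and Mcm5 held 1 such pair 152 bases before it, while both also held CCAAT.

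In fetal livers the changes were small and went both ways. Of the 25 G1/S members 5 rose and 2 fell, and of the 31 G2/M members 5 rose and 2 fell (limma on 3 pool pairs, adjusted p under 0.05 over 21128 genes), beside 11.3% of all genes higher and 14.2% lower. The medians were 0.10 and 0.03 on the log2 scale, against 0.011 over all genes, and 20 of 25 and 27 of 31 members lay within 0.25 of 0. All 3 pool pairs had the same sign for 15 members of each set. No share over all genes is given for this count or for the members within 0.25 of 0, so both describe the members only. The G1/S median was 0.09 in the pools of 6 and 0.17 and 0.05 in the pools of 3, and the G2/M median 0.03, 0.11 and -0.06. Without the pools of 6 no member passed, as no gene on the array did, while the ratios stayed about as large: 0.46 for Mad2l1 (adjusted p = 0.0664), 0.59 for E2f2 (adjusted p = 0.141) and -0.35 for Pola1 (adjusted p = 0.0693). Without the first pair of pools of 3, 1 G1/S member rose and 1 fell and 1 G2/M member rose, and without the second pair 5 and 7 rose and 2 and 0 fell.

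E2f2 rose most. Its level was 15.27, 15.50 and 14.81 in the FR fetal pools, against 14.53, 14.56 and 14.57 in the control pools, with no overlap. The log2 ratios were 0.74, 0.94 and 0.24, a mean of 0.64 ± 0.36 (SD, n = 3 pool pairs), or 1.56-fold, with a limma adjusted p of 0.0297. The summed level of the erythroid markers in FR over control was 1.43, 1.48 and 0.917 in the same pool pairs, so the pair with the smallest E2f2 ratio was also the pair with the lowest erythroid ratio. Such a sum is set mostly by the brightest genes. By gene, 0 of the 14 erythroid markers rose and 2 fell in fetuses (limma, adjusted p under 0.05), Klf1 at -0.47 among them. The shares of all genes were 11.3% higher and 14.2% lower. The part of erythroid cells in the E2f2 result was not tested.

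Tk1, which salvages thymidine for DNA synthesis, had levels of 13.56, 12.97 and 12.89 in FR fetuses, against 13.01, 12.53 and 12.58 in control fetuses. Its mean log2 ratio was 0.44 ± 0.12 (SD, n = 3; limma adjusted p = 0.0116). The replication enzymes Lig1, DNA ligase I, and Pole, the catalytic subunit of polymerase epsilon, rose by 0.28 ± 0.14 and 0.27 ± 0.12, and Cdt1 rose by 0.20 ± 0.07. Pola1, the catalytic subunit of polymerase alpha, which starts each strand, went the other way. Its level was 10.92, 10.97 and 10.95 in FR fetuses, against 11.28, 11.31 and 11.31 in control fetuses, and its log2 ratios of -0.36, -0.34 and -0.36 were the most alike of any member (limma adjusted p = 0.00919). Ccnd1 fell by 0.21 ± 0.08 (limma adjusted p = 0.0433), the same direction as in mothers. Mcm6 gave -0.12, -0.17 and -0.15 (adjusted p = 0.0672) and Chek1, a checkpoint kinase of replication, -0.28, -0.25 and -0.0013 (adjusted p = 0.128). The first Mcm6 value averages -0.68 and 0.44, opposite signs on the 2 arrays of the dye exchange.

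Among the mitotic genes Mad2l1, a core protein of the spindle checkpoint, had levels of 11.58, 11.31 and 11.14 in FR fetuses, against 11.19, 10.76 and 10.78 in control fetuses. Its mean log2 ratio was 0.44 ± 0.11 (SD, n = 3; limma adjusted p = 0.0102), and a second probe gave 0.44 as well. Ccnb1 gave 0.56, 0.52 and 0.15, a mean of 0.41 ± 0.23 (limma adjusted p = 0.0333). Nek2, a centrosome kinase, rose by 0.32 ± 0.16, Kif20a by 0.21 ± 0.08 and Kif2c by 0.20 ± 0.05. Kif11, the kinesin that pushes spindle poles apart, fell by 0.25 ± 0.08 (limma adjusted p = 0.0265), but its 3 probes lay between -0.25 and 0.15, and Pttg1 fell by 0.22 ± 0.10. These SDs are between pair means, and the arrays of a pair could differ in sign. Kif2c gave -0.08 and 0.40 in the second pair of pools of 3, and Pttg1 0.15 and -0.42 in the pools of 6. Top2a gave -0.11, -0.28 and -0.42 (adjusted p = 0.0508) and Bub1b -0.15, -0.08 and -0.18 (adjusted p = 0.088).

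Mki67, Cdk1, Pcna and Mcm2, markers much used for dividing cells, showed no common fetal direction. Mki67 gave log2 ratios of 0.0045, 0.22 and -0.14 (adjusted p = 0.836), Cdk1 0.13, 0.12 and -0.03 (adjusted p = 0.363), Pcna 0.09, 0.03 and -0.03 (adjusted p = 0.703) and Mcm2 0.01, -0.04 and -0.18 (adjusted p = 0.415). In each of these the pool pairs disagreed in sign. Ccnb1, higher in FR fetuses, and Top2a and Ccnd1, lower, had the same sign in every pool pair. Cdc20, the lowest member in FR mothers, gave 0.23, 0.08 and -0.10 (adjusted p = 0.526). Ccna2 gave 0.29, 0.31 and 0.06 (adjusted p = 0.0693).

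The difference between the maternal and the fetal response was tested directly, on 1 maternal and 3 fetal pool pairs, with the maternal pair assumed to vary as the fetal pairs did. Of the 30 G2/M members 16 had a lower response in mothers and none a higher one, and of the 24 G1/S members 5 had a lower and 3 a higher response (limma, adjusted p under 0.05), beside 2.09% of 19054 genes lower and 2.02% higher. Cdc20 differed by -2.61 (SE 0.15, adjusted p = 0.0081), Mki67 by -2.33 (SE 0.16, adjusted p = 0.00942) and E2f2, higher in FR fetuses and lower in FR mothers, by -1.88 (SE 0.27, adjusted p = 0.0365). Cdt1 and Gmnn each differed by 0.80 (adjusted p = 0.027 and 0.0267), higher in mothers. Without the fetal pools of 6 no member passed, while the differences stayed about as large, -2.53 for Cdc20 (adjusted p = 0.0938), -1.83 for E2f2 (adjusted p = 0.15), 0.77 for Cdt1 and 0.79 for Gmnn (adjusted p = 0.136 each).

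A further 60 cell cycle genes, in 2 lists, were read in the same way. Of 30 other G1/S genes 28 were lower in control mothers than in control fetuses, and of 30 other G2/M genes 29 were. Of the 28 other G2/M genes measured in mothers 2 were over 2-fold lower in FR: Cdca3, a trigger of mitotic entry, with log2 ratios of -1.18 and -1.13, and Cdca8, borealin, a partner of survivin, with -1.16 and -1.20. Their median was -0.38, and 24 of the 28 were lower on both arrays. Of the 28 other G1/S genes measured in mothers none was over 2-fold either way and the median was -0.24. Mcm10, a replication initiation factor, gave 0.60 and 1.07, and E2f8, an atypical E2F, -0.84 and -0.91.

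**Figure D4:**
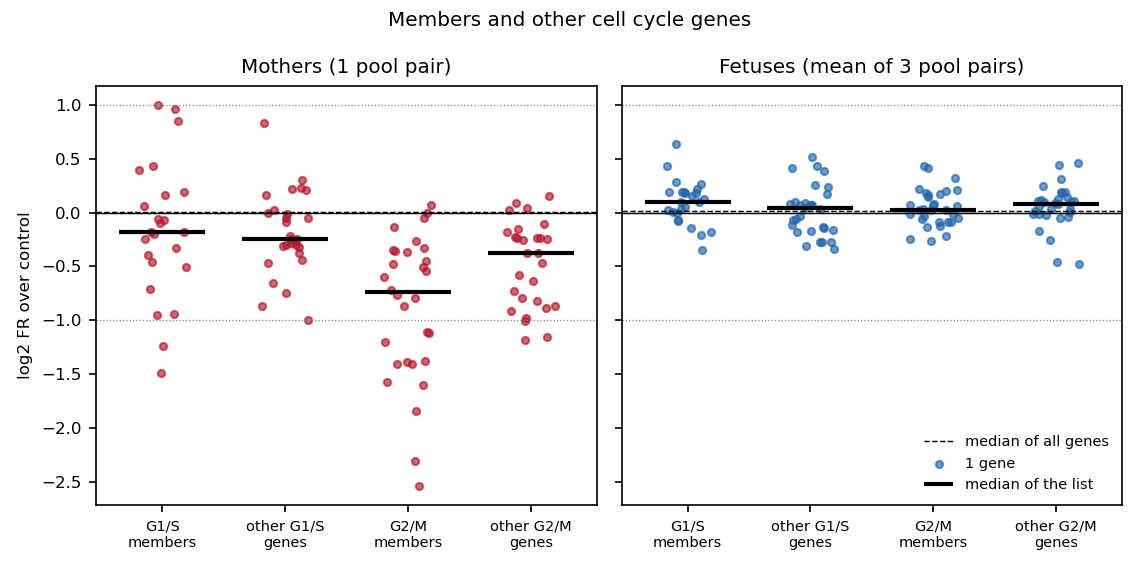
Log2 ratio of FR over control in mothers (left) and in fetuses (right, mean of 3 pool pairs). Each point is 1 gene of the members or of the 2 further lists, bars are the medians of the lists, the dashed line is the median of all genes and dotted lines mark 2-fold. Medians in mothers run from -0.18 to -0.74 and those in fetuses from 0.03 to 0.10.

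In fetuses 5 of 30 other G1/S genes rose and 6 fell, and 3 of 30 other G2/M genes rose and 3 fell, beside 11.3% of all genes higher and 14.2% lower. E2f8 rose by 0.52, Rpa2, a subunit of the single-strand binding protein, by 0.43, Dbf4, the activator of the Cdc7 kinase, by 0.42, and E2f7 by 0.38. Rfc5, a clamp loader subunit, fell by 0.34, and Mcm10 fell by 0.31. Racgap1, a regulator of cytokinesis, rose by 0.47 and Cdca3 by 0.44, while Hmmr, a spindle protein, fell by 0.47 and Spc24, a kinetochore protein, by 0.46. Of the subunits of polymerase epsilon, Pole rose, as given above, and Pole2 fell by 0.27.

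Marker genes of other cells also differed between the diets. In mothers the summed normalised intensity of 14 erythroid markers was 42150 in FR and 79320 in control, a ratio of 0.531, and the 6 macrophage markers gave 0.692. The transferrin receptor Tfrc gave -1.53 and -1.39 in mothers, the Kupffer cell lectin Clec4f -1.28 and -1.29 and Emr1 -1.12 and -1.18, Marco, another macrophage marker, gave 0.52 and 1.14, and Klf1, an erythroid transcription factor, gave 0.74 and 1.03. The other sums in mothers, FR over control, were 0.90 for hepatocyte, 0.808 for B lineage, 1.03 for granulocyte, 0.94 for megakaryocyte and 0.908 for endothelial markers. Of the 9 hepatocyte markers 1 was lower and 3 were higher in FR on both maternal arrays. The others had opposite signs on the dye-exchanged arrays, such as Alb at 1.08 and -1.08, so the hepatocyte sum averages arrays that disagree. In fetuses the B lineage sums were 0.492, 0.415 and 0.602 and the granulocyte sums 0.631, 0.621 and 0.687 in the 3 pool pairs. The fetal hepatocyte sums were 0.925, 0.689 and 0.782. Whether a change in the mix of cells takes part in the maternal or fetal values of the members was not tested.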

How the data were processed

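Liver RNA of FR and control pools was measured on Agilent 44K 2-colour arrays. Intensity values of Cy3 and Cy5 spots and background came, per the file headers, from Agilent Feature Extraction, version 9.5.3.1 on slide 1, as in the submitters' processing notes, and 11.0.1.1 on slide 2. Flags per spot came with the files. The authors also deposited log10 ratios of Cy5 over Cy3, not turned for the dyes, which matched log10 of the processed signals with a largest difference of 5e-08.

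In R 4.3.3 with limma 3.58.1, spot signal (mean on slide 1, median on slide 2) was background-corrected with normexp (offset 50) and normalised by loess within arrays. The log2 ratios computed here from the deposited intensities were turned to FR minus control. Population outlier spots were left out, and non-uniform and saturated spots kept. For ratios, a probe was used if at least 1 diet's channel was well above background on every array of the tissue. A gene was read from its brightest passing probe. Fetal ratios were tested with limma's moderated test against 0 on 3 pool pairs, and p-values adjusted by Benjamini-Hochberg over all genes. Maternal genes were counted at 2-fold on both arrays. Levels were compared on single channels (Aquantile, with slide as a block). There a probe was used if the compared channel was well above background on all maternal arrays or on all fetal arrays. A gene whose FR level was not well above background has only a lower bound for its fold, set per array against the lowest measurable signal or its own signal, whichever was higher (its own in every such member). Nothing says the pools of a diet were separate beyond their titles, and some fetal pools must share litters. The p-values therefore measure the spread between pools and not between litters. Whether the single maternal pool varied as the fetal pools did was not tested. Probe coordinates are mm9, from slide 1.

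The members, the lists of other cell cycle and marker genes, the motifs and the naming rule were chosen with earlier results of these data known. Named were the members past a threshold, the 4 highest and 4 lowest of each set per comparison, those with disagreeing probes, some fixed markers, and up to 4 other pathway genes of each list. Mcm3, Mcm7, Mcm10, Tpx2, Aurkb, Kif23, Rfc5, Pole2, Marco, Alb and Cdca8 were named after their values were seen. The listed names Eraf, Serpina1a and Cebpe were not matched.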

Additional observations from a re-analysis of the deposited data

Results flagged for a closer look

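The maternal response differed from the fetal response by a direct test (limma on 1 maternal and 3 fetal pool pairs, adjusted p under 0.05) for 24 members, on the log2 scale as mother minus fetus. The lone maternal pair has no spread of its own and was assumed to vary as the fetal pairs did, so the p-values rest on that assumption. Cdc20 had the lowest difference, -2.61, followed by Mki67 at -2.33. Birc5 gave -1.75 and Ube2c -1.55. Among cyclins, kinases and their phosphatase the differences were -1.80 for Ccna2, -0.91 for Ccnb2, -0.86 for Cdk1, -1.11 for Aurka, -0.996 for Plk1 and -1.62 for Cdkn3. Spindle, kinetochore and cytokinesis genes gave -1.59 for Kif20a, -1.44 for Ect2, -1.33 for Prc1, -1.06 for Cenpe, -0.79 for Mad2l1 and -0.68 for Cenpa. In the G1/S set the negative differences were -1.88 for E2f2, -1.28 for Ccnd1, -0.96 for Mcm5, -0.80 for Mcm6 and -0.63 for Mcm4. The positive ones were 0.80 for Cdt1, 0.80 for Gmnn and 0.66 for Ccne1. Without the fetal pools of 6 none of the 24 passed, with adjusted p from 0.0938 to 0.181, while the differences stayed about as large (-2.53 for Cdc20 and -2.34 for Mki67).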

How the results depend on the processing

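All 14 members over 2-fold lower in FR mothers kept that call with a normexp offset of 10, with the deposited ratios, without a filter on dim probes, with non-uniform spots left out, and with the median spot signal (this last chosen after seeing the data). With all probes averaged 11 kept it. Without loess 8 did, and in the other 6 the mean ratio was about as large (-1.50 for Ccnd1, -1.28 for E2f2), so that they failed only the rule that both arrays pass. The G2/M maternal median was -1.14 with an offset of 10, -1.26 with that offset and the median signal together (also chosen after seeing the data), and -2.24 in the deposited ratios, where 22 G2/M members were over 2-fold lower and 27 had a lower response in mothers than in fetuses. Without loess no G1/S member was over 2-fold lower on both maternal arrays, the G1/S responses above and below the fetal ones numbered 0 and 1, and 8 G2/M responses were below.

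Fetal calls moved with most settings. They numbered 0 higher and 1 lower in G1/S and 0 higher in G2/M without loess, with medians of -0.014 and -0.090. There were 3 higher and 1 lower in G1/S and 0 lower in G2/M with the deposited ratios, and 1 lower in each set with an offset of 10. With offset and median signal together they were 1 lower in G1/S, and 3 higher and 1 lower in G2/M. Leaving out 1 fetal pool pair at a time gave 0 to 5 higher and 0 to 2 lower in G1/S, and 0 to 7 higher and 0 to 0 lower in G2/M. For the response differences it gave 0 to 3 above and 0 to 6 below in G1/S and 0 to 22 below in G2/M.

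With non-uniform spots left out, 7 G1/S and 11 G2/M members could be measured in fetuses. Of these 1 rose and 1 fell in G1/S, and 1 rose and 4 fell in G2/M. The response differences, with 6 and 5 members measured, numbered 0 above and 1 below in G1/S and 0 below in G2/M. Ccne1 reversed there, at -0.034 (adjusted p = 0.919), and Ect2 stood at -0.063 (adjusted p = 0.89). Both values equal the difference by the gene's second, dimmer probe, which was read in place of the brighter one. For control levels, 5 G1/S and 7 G2/M members were lower in mothers, with medians of -1.53 and -1.20. Fewer genes were measured by construction.

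The G2/M level median was -3.75 (offset 10), -3.74 (offset and median signal), -2.89 (probes averaged), -4.29 (FR pools) and -4.44 with no normalization between arrays, where the G1/S median was -3.72. In these last 2 settings 0 G1/S members were higher in mothers. Leaving out a fetal pool, which is only possible without the slide block and was added after seeing the data, left 23 to 24 G1/S and 29 to 30 G2/M members lower. No paired analysis was possible because each array already holds both diets and the groups share fewer than 2 replicate numbers. For the 7 G2/M members not above background in FR mothers the signal allows at most a lower bound, and the number of pool pairs limits every test.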
